A study of Mus musculus with 36 samples.

Results

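The genes described here are the secreted ligands, receptors, antagonists and intracellular transducers of the Wnt pathway. They were taken by their annotated symbols: every Wnt, Fzd, Sfrp or Dkk gene with a number in its name, together with Lrp5, Lrp6, Axin1, Axin2, Frzb, Wif1, Tcf7, Tcf7l2, Lef1, Ctnnb1 and Apc. This rule found 44 of the 15964 genes with a probe set: 16 ligands, 12 receptors, 9 antagonists, 6 transducers and Fzd10os, an antisense transcript that the rule took in by its symbol. Tcf7 was not analysed here. The tissue was intestine of male mice of the outbred stock Hsd:ICR(CD-1), aged 8 weeks, fed standard chow and given no stated treatment, in 4 segments: the duodenum, the jejunum, the ileum and the undivided colon. Each segment was measured in 3 samples, and each sample was total RNA of whole segments pooled from 10 mice. Every sample was hybridised to array sets A, B and C, which gave 36 arrays. Pooling hides the spread between single mice, and the whole wall was used, so epithelium, muscle, immune cells and nerves all gave RNA. In such samples fewer cells of a type and less RNA per cell cannot be told apart.

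Wnt proteins are secreted, lipid-bearing signals that bind Frizzled receptors together with the co-receptor Lrp5 or Lrp6. In the absence of a signal, a complex with Apc and the Axins marks beta-catenin (Ctnnb1) for destruction; a Wnt signal stops this, and beta-catenin then acts in the nucleus with Tcf7, Tcf7l2 and Lef1. Sfrp proteins, Frzb and Wif1 bind Wnt proteins outside the cell, and Dickkopf proteins such as Dkk1 block Lrp5 and Lrp6. In the intestine the pathway is known for maintaining the stem cells at the crypt base, and Apc for its loss in intestinal tumours.

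Segment labels were borne out by genes of known position, each read from 1 probe set and so on 1 array set only. On array set C, duodenum 3 carries the name of the jejunum in its source label. Pdx1, a duodenal transcription factor, had intensities of 94.3 to 100.2 in the duodenum and at most 15.0 in any other pool, and the ileal bile acid-binding protein Fabp6 had 9402.8 to 12968.3 in the ileum and at most 129.8 elsewhere. The colonic carbonic anhydrase Car1 had at least 12551.7 in the colon and at most 79.6 in the small intestine. Median intensities, which stand for signal depth, ranged from 48.7 to 75.2 over the arrays of set A, from 85.7 to 110.2 over those of set B and from 85.4 to 104.5 over those of set C. Signal of 18S ribosomal RNA was low in jejunum 2, jejunum 3, ileum 1 and ileum 3 (200.6 to 1541.2 on array set A) and high in the other 8 samples (5772 to 20057.7). The high class holds 1 jejunum and 1 ileum pool. The labels do not say whether pools of different segments share mice, and p-values measure the spread between these pools.

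How many members stood above the median of their array set depended on the probe set read. A gene was represented by its brightest probe set on array set A (37 members), else B (4), else C (3). Of the 44 members, 21 had a mean above the median of their array set (66.3 on A, 100.4 on B, 94.4 on C) in their highest segment: 5 of 16 ligands, 9 of 12 receptors, 2 of 9 antagonists, 4 of 6 transducers and Fzd10os. With the brightest probe set of each member over all 3 array sets, a setting chosen after seeing the data, the count was 30 of 44: 10 of 16 ligands, 10 of 12 receptors, 4 of 9 antagonists, 5 of 6 transducers and Fzd10os. Probe sets differ in how strongly they bind, so this is a description of the signal and no ranking of transcripts. Among the 21 counted first, the highest mean was in the colon for 8, the duodenum for 6, the ileum for 6 and the jejunum for 1.

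**Figure D1:**
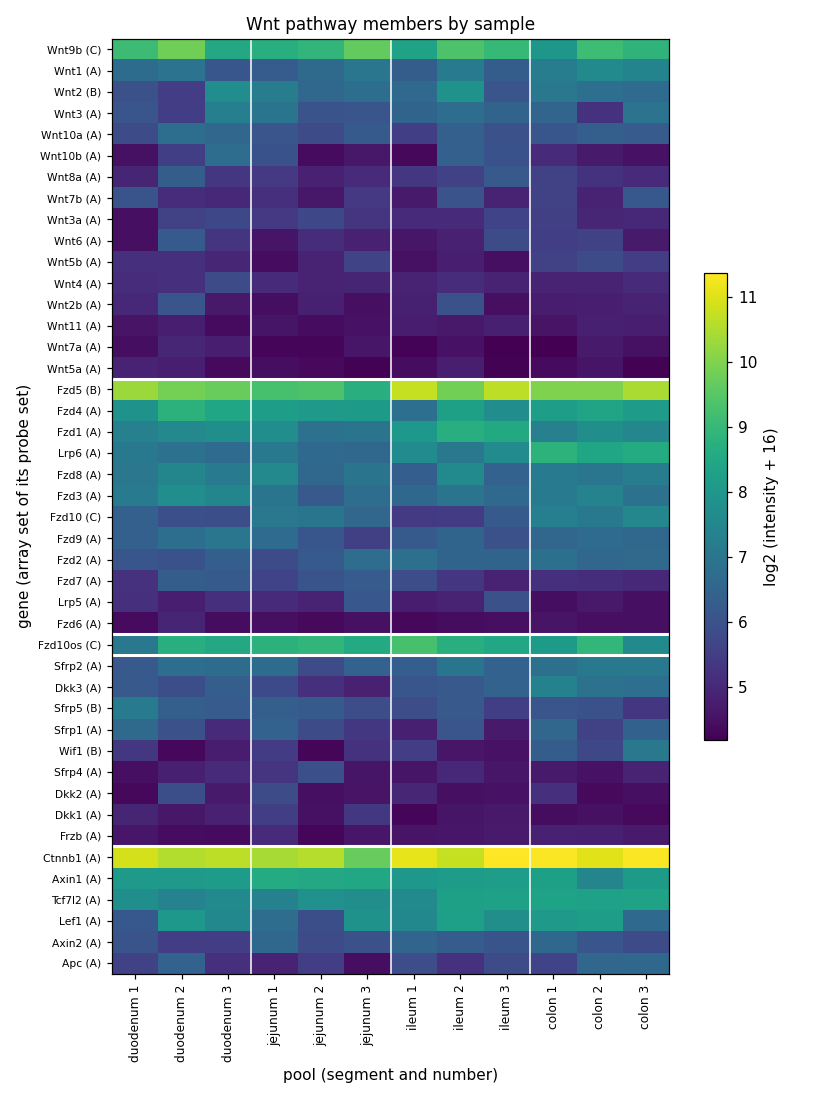
Log2 of intensity plus 16 (colour) of the 44 members (rows, in blocks of ligands, receptors, the antisense transcript, antagonists and transducers, each with the array set of its probe set) in the 12 pools (columns). Colour is to be compared along a row; the row of Lrp6 is brightest in the 3 colon pools.

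For any difference among segments, the share of members called was close to that of all genes. In limma's test for any difference among the 4 segments, 6 of 44 members (13.6%) passed an adjusted p of 0.05, against 13.7% of all genes: Lrp6, Fzd5, Fzd1, Fzd10, Dkk3 and Ctnnb1. Between jejunum and duodenum limma called 0 members, against 1.50% of all genes (0.639% higher and 0.858% lower). An unadjusted p below 0.05 was found for 4 of 44 members and for 14.4% of all genes. Between ileum and jejunum 2 members were higher in the ileum and 0 lower (4.55%), against 4.48% of all genes called, 2.46% higher and 2.02% lower. Between colon and ileum 2 were higher in the colon and 0 lower (4.55%), against 5.22% of all genes, 2.49% higher and 2.74% lower. Between the colon and the mean of the 3 small-intestinal segments, 4 members were higher in the colon and 0 lower (9.09%), against 11.9% of all genes called, 6.92% higher and 4.96% lower. The median difference between colon and small intestine was 0.13 on the log2 scale over the members and 0.05 over all genes. For 5 members (Lrp6, Dkk3, Fzd10, Wif1 and Wnt1), or 11.4%, the 3 colon pools lay above all 9 small-intestinal pools, against 6.77% of all genes. For Lrp5 (2.27% of the members) they lay below all 9, against 4.18%.

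Promoters are shown for Wif1 and Fzd10, called higher in the same comparison, and for Fzd5 and Fzd1, called higher in another. Those of Ctnnb1, also called, are not shown, and none was found for Lrp6 or Dkk3. Promoter sequences (250 bases before to 50 after the start site) from RefSeq, build GRCm38.p6, were found for 28 members, with 36 promoters. Wif1 (chr10:121033754-121034053, plus strand) and Fzd10 (chr5:128600856-128601155, plus strand) were higher in the colon, and Fzd5 (chr1:64737701-64738000, minus strand) and Fzd1 (chr5:4758167-4758466, minus strand) were higher in the ileum than in the jejunum. They were searched on both strands for CTTTGAT and CTTTGTT, the core letters to which the Tcf and Lef factors bind. Sequences run 5′ to 3′, and a match is in capitals.
Wif1: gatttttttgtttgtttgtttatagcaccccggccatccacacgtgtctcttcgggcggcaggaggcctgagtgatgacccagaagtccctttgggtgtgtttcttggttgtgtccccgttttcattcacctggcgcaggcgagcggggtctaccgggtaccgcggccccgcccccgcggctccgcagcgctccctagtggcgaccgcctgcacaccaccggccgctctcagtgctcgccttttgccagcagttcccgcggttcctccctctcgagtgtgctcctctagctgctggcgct
Fzd10: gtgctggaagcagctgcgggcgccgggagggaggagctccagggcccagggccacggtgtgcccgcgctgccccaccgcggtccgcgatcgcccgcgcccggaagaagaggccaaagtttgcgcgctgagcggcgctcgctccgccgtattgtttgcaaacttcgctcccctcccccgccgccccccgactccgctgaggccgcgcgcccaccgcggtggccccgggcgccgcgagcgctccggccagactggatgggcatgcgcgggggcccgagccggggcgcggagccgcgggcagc
Fzd5: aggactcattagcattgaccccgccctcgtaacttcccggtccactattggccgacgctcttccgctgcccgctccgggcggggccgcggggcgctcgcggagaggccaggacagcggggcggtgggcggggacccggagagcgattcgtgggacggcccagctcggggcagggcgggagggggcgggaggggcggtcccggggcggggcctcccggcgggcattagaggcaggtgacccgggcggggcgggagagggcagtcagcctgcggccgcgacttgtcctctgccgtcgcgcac
Fzd1: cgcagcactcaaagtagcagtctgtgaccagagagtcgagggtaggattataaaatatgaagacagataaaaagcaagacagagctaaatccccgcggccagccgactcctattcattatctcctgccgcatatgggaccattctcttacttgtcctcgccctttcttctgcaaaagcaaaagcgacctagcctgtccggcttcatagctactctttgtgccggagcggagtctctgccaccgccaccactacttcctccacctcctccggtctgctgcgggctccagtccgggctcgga
None of these 4 windows held a match. A promoter of Tcf7l2 (chr19:55895071-55895370, plus strand), a factor that binds these letters, held CTTTGTT from position -14 relative to the start site.
Tcf7l2: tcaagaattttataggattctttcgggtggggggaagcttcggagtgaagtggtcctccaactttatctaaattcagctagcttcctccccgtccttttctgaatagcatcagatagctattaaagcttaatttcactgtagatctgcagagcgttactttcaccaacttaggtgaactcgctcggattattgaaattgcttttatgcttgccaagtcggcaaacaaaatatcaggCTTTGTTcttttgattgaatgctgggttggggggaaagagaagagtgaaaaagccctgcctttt
Either motif was present in 6 of the 36 member promoters (16.7%), those of Dkk1, Fzd7, Tcf7l2, Wnt11, Wnt3 and Wnt5b, and in 3066 of 32851 promoters of all genes (9.33%). These matches are letters in a window and were not compared with any binding data.

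None of the 16 ligands passed the test in any comparison (limma, lowest adjusted p 0.0715), with 0 called of 16. Of all genes, 13.7% were called for any difference and 11.9% between colon and small intestine, so 0 of so few genes sets the ligands little apart. Wnt1, the founding member of the family, had intensities of 89.2, 104.8 and 52.1 in the duodenum, 61.8, 86.1 and 111.1 in the jejunum, 62.5, 125.4 and 62.5 in the ileum and 134.6, 181.5 and 155.8 in the colon. The colon pools lay above all small-intestinal pools, with a difference of log2 0.83 and an adjusted p of 0.0715, so Wnt1 just missed the threshold. Wnt9b, measured on array set C, had means between 412.0 ± 156 in the colon and 588.4 ± 267 in the duodenum (SD, n = 3), and the pools of all segments overlapped. Wnt2, Wnt3 (made by Paneth cells in the crypt) and Wnt10a also lay above their set's median in at least their highest segment, with adjusted p of 0.82 to 0.96 for any difference. From duodenum to colon, Wnt2 had means of 88.7 ± 89.1, 100.5 ± 27.3, 115.8 ± 85.5 and 100.3 ± 15.2. The means of Wnt3 were 73.6 ± 59.5, 69.3 ± 33.0, 79.5 ± 10.5 and 66.7 ± 42.2, and those of Wnt10a 71.3 ± 26.9, 50.3 ± 8.57, 48.0 ± 19.3 and 59.6 ± 6.41. For all 3 ligands the pools of different segments overlapped. The probe sets that stood for the other 11 ligands had means of 6.49 to 28.5 over all pools, where the added offset of 16 makes log2 differences small. Of these, 5 had a brighter probe set above its set's median on array set B or C: Wnt7a (mean 1028 over all pools), Wnt5b (419.8), Wnt7b (258.6), Wnt4 (202.3) and Wnt5a (146.6). These brighter probe sets were not called either, with adjusted p of 0.322 to 0.993 for any difference. Among the dim standing probe sets, that of Wnt5b was the highest in the colon relative to the small intestine, with a mean of 34.5 ± 6.68 in the colon against 8.27 ± 2.98 in the ileum, log2 0.76 and an adjusted p of 0.0778 against the small intestine.

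Lrp6, a co-receptor that binds Wnt proteins beside a Frizzled, showed the smallest adjusted p of the members. Its intensities were 120.8, 100.2 and 87.5 in the duodenum, 119.6, 82.9 and 80.1 in the jejunum, 184.9, 118.1 and 185.6 in the ileum and 439.2, 327.9 and 375.3 in the colon. The colon pools stood clear of the rest, and the ileum overlapped with the duodenum and jejunum. The colon exceeded the small-intestinal mean by log2 1.59 (SE 0.195, adjusted p 6.16e-05) and the ileum by 1.17 (SE 0.239, adjusted p 0.0112). A dimmer probe set on array set A (3.4 to 39.5) was also higher in the colon than in the small intestine (log2 0.80, adjusted p 0.0276). Its colon and ileum pools overlapped, and the colon was not called against the ileum (log2 0.23, adjusted p 0.844). The brightest Lrp6 probe set, on array set C, gave 380.0 to 889.9 with all segments overlapping and a colon difference of log2 -0.19 (adjusted p 0.803), so the array sets did not give the same picture of this gene. The call against the ileum also ended without colon 1 (adjusted p 0.0767), colon 3 (0.0512) or ileum 2 (0.0504). Its partner Lrp5 was dim, with 19.4, 11.7 and 20.4 in the duodenum, 17.1, 13.2 and 54.5 in the jejunum, 10.3, 13.0 and 45.8 in the ileum and 5.7, 9.4 and 6.4 in the colon. All 3 colon pools of Lrp5 were lowest, with log2 -0.66 and an adjusted p of 0.249.

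Fzd5 and Fzd1, Frizzled receptors that bind Wnt proteins at the cell surface, were higher in the ileum than in the jejunum. Fzd5, the receptor known for its part in Paneth cell maturation, had 1246.5, 920.7 and 813.0 in the duodenum, 602.0, 643.2 and 405.2 in the jejunum, 1679.4, 899.9 and 1598.7 in the ileum and 992.7, 1002.5 and 1394.6 in the colon. The 3 jejunum pools were the lowest of the 12, below every pool of the other segments. Ileum exceeded jejunum by log2 1.29 (SE 0.267, adjusted p 0.0160). Fzd1 had 142.3, 172.2 and 202.8 in the duodenum, 194.5, 100.9 and 108.0 in the jejunum, 243.5, 406.0 and 357.5 in the ileum and 141.3, 196.9 and 166.6 in the colon. Here the ileum pools were the highest of the 12 and did not overlap with any other segment. The difference between ileum and jejunum was log2 1.25 (SE 0.264, adjusted p 0.0196), and the colon lay below the ileum by log2 -0.91 (adjusted p 0.0871).

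Within the 18S classes the ileum pools of both receptors were also the higher ones. In the low class, Fzd5 had 643.2 and 405.2 in the jejunum and 1679.4 and 1598.7 in the ileum, and in the high class 602.0 and 899.9. Fzd1 had 100.9 and 108.0 against 243.5 and 357.5 in the low class, and 194.5 against 406.0 in the high class. The high class alone sets 1 pool against 1, so its differences of log2 0.57 and 1.00 had only the spread of the duodenum and colon pools as their error (adjusted p 0.728 and 0.422). Without jejunum 3 or without ileum 3, neither gene was called (Fzd5 0.0828 and 0.0939, Fzd1 0.0892 and 0.0967). Fzd5 was also not called without ileum 1 (0.0825), and Fzd1 not without jejunum 2 (0.0774) or ileum 2 (0.0596). Actin's 3′ signal over its 5′ signal, a ratio that rises as RNA breaks down, was 1.14 to 1.20 in the ileum and 1.28 to 1.55 in the jejunum on array set A, and its part in these differences was not tested. A brighter Fzd1 probe set on array set B (458.6 to 827.8) gave a difference of only log2 0.18 (adjusted p 0.842).

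Fzd10 passed its test between colon and small intestine narrowly. It had 67.5, 44.7 and 44.5 in the duodenum, 116.9, 110.3 and 77.3 in the jejunum, 26.0, 27.4 and 58.7 in the ileum and 138.5, 120.3 and 167.1 in the colon. The colon pools were the highest of all, the jejunum came next, and the duodenum and ileum overlapped. The colon exceeded the ileum by log2 1.61 (SE 0.376, adjusted p 0.0314) and the small-intestinal mean by 1.09 (SE 0.307, adjusted p 0.0477). The call against the small intestine was kept under 7 of 24 other settings, with adjusted p from 0.0207 to 0.216. The probe set is of a type (suffix _f) that can bind related sequences, and it lies on array set C. There duodenum 3 carries the name of the jejunum in its source label and was kept as duodenum by its title. With that array left out or counted as jejunum, the call against the small intestine ended (limma, adjusted p 0.0694 and 0.0645). Fzd10os, whose transcript runs antisense to Fzd10, had means of 288.7 ± 150 in the duodenum, 419.4 ± 53.5 in the jejunum, 448.7 ± 133 in the ileum and 302.5 ± 152 in the colon (SD, n = 3) and was not called (adjusted p 0.626).

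The remaining receptors were not called. Fzd2, Fzd3, Fzd4, Fzd8 and Fzd9 lay above the median of array set A in at least 1 segment, with adjusted p from 0.209 to 0.859 for any difference. Fzd4, the receptor for Norrin as well as Wnt proteins, had 323.9 ± 109 in the duodenum, 261.8 ± 11.9 in the jejunum, 193.4 ± 96.3 in the ileum and 285.8 ± 25.5 in the colon. Fzd3 had its highest mean in the duodenum (159.9 ± 34.1) and its lowest in the jejunum (86.5 ± 27.0), with an adjusted p of 0.209. Fzd2 had means of 55.0 ± 9.27, 63.7 ± 25.4, 82.1 ± 14.6 and 86.5 ± 9.85 from duodenum to colon, the highest in the colon (adjusted p 0.586). Fzd9 had 90.6 ± 22.4 in the duodenum and 57.1 ± 28.5 in the jejunum, and Fzd8 had means of 104.7 ± 64.6 to 133.2 ± 25.9. Fzd7, known as a receptor of intestinal stem cells, was dim at 18.1 ± 1.803 in the colon and 47.7 ± 23.3 in the duodenum, and Fzd6 gave means of 5.27 to 8.33 on array set A. The brighter Fzd6 probe set on array set B had means of 155.6 to 195.8, above the median of that set, with an adjusted p of 0.961 for any difference.

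Antagonists higher in the colon were Dkk3 and Wif1, 2 of 9, against 6.92% of all genes. Dkk3, a divergent Dickkopf protein, had 57.4, 43.4 and 65.8 in the duodenum, 39.9, 20.3 and 12.8 in the jejunum, 53.0, 56.9 and 71.3 in the ileum and 145.8, 100.3 and 96.7 in the colon. The colon pools were highest and the jejunum pools lowest, with no overlap with the other segments at either end. The colon exceeded the small-intestinal mean by log2 1.11 (SE 0.262, adjusted p 0.0144). A brighter Dkk3 probe set on array set B had 53.0 to 244.3 in the small intestine and 275.5, 318.8 and 321.9 in the colon, again without overlap (log2 1.20, adjusted p 0.0543). Wif1, which binds Wnt proteins outside the cell, had 24.3, 4.0 and 10.5 in the duodenum, 26.7, 3.9 and 21.5 in the jejunum, 28.5, 8.6 and 7.3 in the ileum and 63.1, 37.8 and 117.6 in the colon. Only colon 3 lay above the median of array set B, and all 3 colon pools exceeded the other 9. The difference was log2 1.49 (SE 0.358, adjusted p 0.0153).

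Both calls ended when a single colon pool was left out, which also leaves fewer colon pools to compare. Without colon 1 neither Dkk3 (log2 0.95, adjusted p 0.125) nor Wif1 (1.52, 0.0549) was called, and without colon 3 Wif1 was not (1.14, 0.131). The Wif1 difference itself was no smaller without colon 1 than with all pools (log2 1.49). Without colon 1, Lrp6 was the 1 member called between colon and small intestine. With the 18S class as a covariate Dkk3 and Wif1 also missed the threshold (adjusted p 0.0617 and 0.0560). Sfrp2, a secreted Frizzled-related protein, was the other antagonist above its set's median, at 80.3 ± 20.1, 67.2 ± 24.1, 81.8 ± 24.9 and 112.4 ± 12.3 from duodenum to colon, with log2 0.51 and an adjusted p of 0.312 in the colon. The probe sets that stood for the other 6 antagonists (Dkk1, Dkk2, Frzb, Sfrp1, Sfrp4 and Sfrp5) were dim, and each had an adjusted p of at least 0.271 for any difference. Brighter ones lay above their set's median for Sfrp1 on array set B (mean 215.3, adjusted p 0.0554) and Frzb on array set C (116.7 in the colon, 0.0514).

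**Figure D2:**
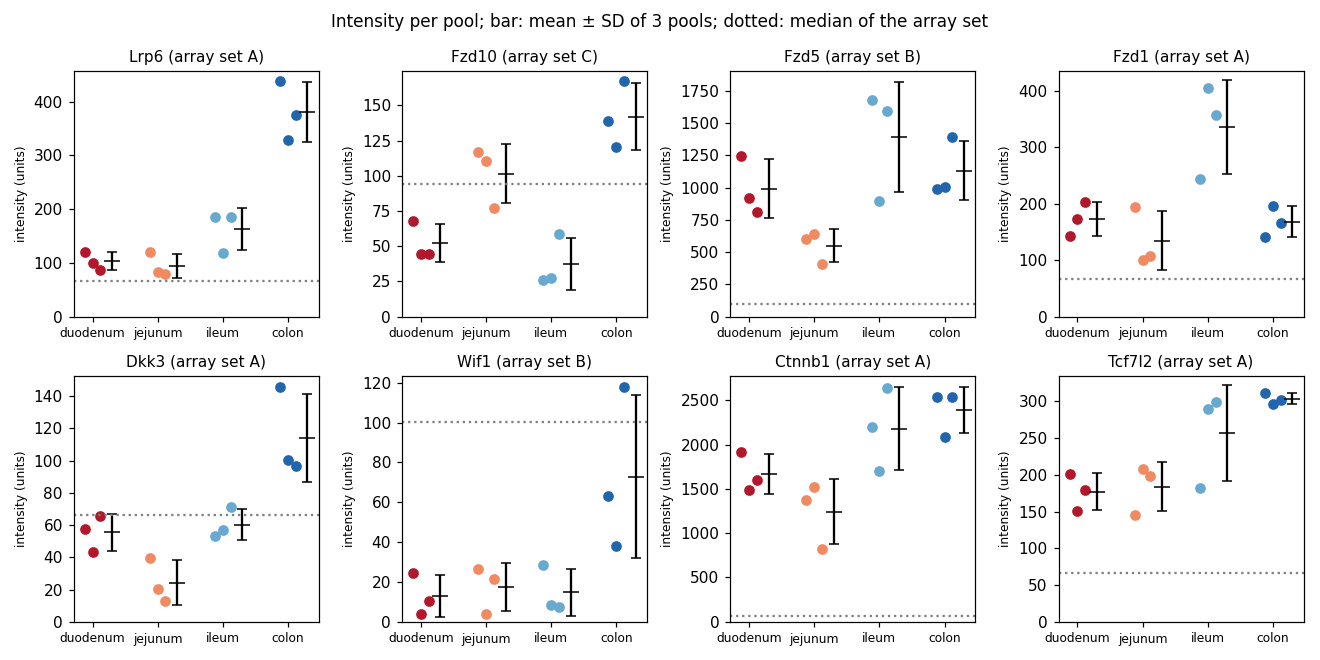
Intensity (arbitrary units, linear axis from 0) in each pool of the 7 members called in any comparison and of Tcf7l2, by segment. Points are pools, bars give the mean ± SD of 3 pools, and the dotted line is the median of the array set; Lrp6, Fzd10, Dkk3 and Wif1 are highest in the 3 colon pools, and Fzd1 in the 3 ileum pools.

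Among the transducers Ctnnb1 differed between segments. Ctnnb1 (beta-catenin) had 1921.0, 1488.2 and 1600.3 in the duodenum, 1377.7, 1517.1 and 823.5 in the jejunum, 2196.7, 1705.4 and 2634.8 in the ileum and 2533.9, 2089.6 and 2536.7 in the colon. The ileum and colon lay above the jejunum without overlap, and the duodenum overlapped with the jejunum and ileum. The test for any difference gave an adjusted p of 0.0309, while ileum against jejunum (log2 0.83, adjusted p 0.0594) and colon against small intestine (log2 0.55, 0.0868) missed the threshold. Without jejunum 3, the lowest pool, the adjusted p for any difference was 0.0839, and the call also ended without duodenum 3 (0.0505), ileum 1 (0.0532), ileum 3 (0.0503), colon 1 (0.0843) or colon 3 (0.0843). It was also absent with each array centred on its median (adjusted p 0.322), without the intensity trend in limma (0.0963) and in the high 18S class alone (0.0893).

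Tcf7l2, the main partner of beta-catenin in intestinal epithelium, had 201.5, 150.7 and 179.1 in the duodenum, 145.5, 207.9 and 198.0 in the jejunum, 181.5, 289.6 and 298.3 in the ileum and 311.3, 296.6 and 301.6 in the colon. The colon overlapped with the ileum only at ileum 3, and the difference from the small intestine was log2 0.56 (adjusted p 0.0753). Axin2, a feedback inhibitor that Wnt signals switch on, had 50.1, 29.0 and 28.4 in the duodenum, 81.3, 41.4 and 46.6 in the jejunum, 76.1, 61.4 and 50.7 in the ileum and 79.8, 52.1 and 41.5 in the colon. The segments overlapped widely, with an adjusted p of 0.636 for any difference. A brighter Axin2 probe set on array set B had means of 168.3 in the duodenum to 379.4 in the ileum and was not called either (adjusted p 0.481). Apc, the scaffold of the destruction complex, was below the median of array set A in all 4 segments, with 31.7, 70.5 and 20.3 in the duodenum, 13.0, 28.9 and 5.9 in the jejunum, 43.1, 20.8 and 41.7 in the ileum and 33.2, 78.4 and 81.3 in the colon. Its segments overlapped as well (adjusted p 0.225). The Apc probe sets differed in sign for colon against small intestine, and none was called. That on array set A gave log2 0.83 (limma, adjusted p 0.190), and 1 on array set B gave 0.76 (0.398). Another on B gave -1.02 (0.0890), with 13.8, 17.9 and 7.4 in the colon, below every small-intestinal pool.

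Axin1, the other Axin scaffold, had its highest values in the jejunum, at 376.2, 350.8 and 340.2, above every other pool, but was not called (adjusted p 0.250 for any difference). Lef1, a factor of the same family as Tcf7l2, varied more between pools of a segment than between segments, from 43.7 to 213.8 within the jejunum (adjusted p 0.624).

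Of the 44 members, 24 had several probe sets, and these often did not agree on the sign of a difference. For colon against small intestine all probe sets of a gene had the same sign for 9 of the 24 genes, 7 higher and 2 lower. Over all 90 probe sets of the members, 8 were called in this comparison, against 7.57% of the probe sets on the arrays. For 22 members the brightest probe set of all lay on another array set than the one that stood for the gene. The following 3 genes were chosen after their values were seen. The Fzd8 probe set on array set B had 314.9, 200.8 and 157.0 in the duodenum, 124.3, 253.7 and 81.1 in the jejunum, 327.6, 182.4 and 257.8 in the ileum and 548.9, 660.9 and 710.4 in the colon. The colon pools stood apart (log2 1.62, SE 0.296, adjusted p 0.0019), while the Fzd8 probe sets on A (log2 0.12, adjusted p 0.890) and C (0.39, 0.523) were not called. The Tcf7l2 probe set on array set B had 326.7, 284.9 and 399.4, then 223.0, 312.0 and 169.3, then 447.0, 269.5 and 542.2 in the small intestine from duodenum to ileum, and 612.6, 877.3 and 657.0 in the colon. All colon pools were highest (log2 1.13, SE 0.237, adjusted p 0.00571), in the same direction as the probe set on A. The Frzb probe set on array set C had 15.9 to 87.3 in the small intestine and 152.8, 114.5 and 82.9 in the colon, with log2 1.17 and an adjusted p of 0.0341, and colon 3 fell below duodenum 1.

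**Figure D3:**
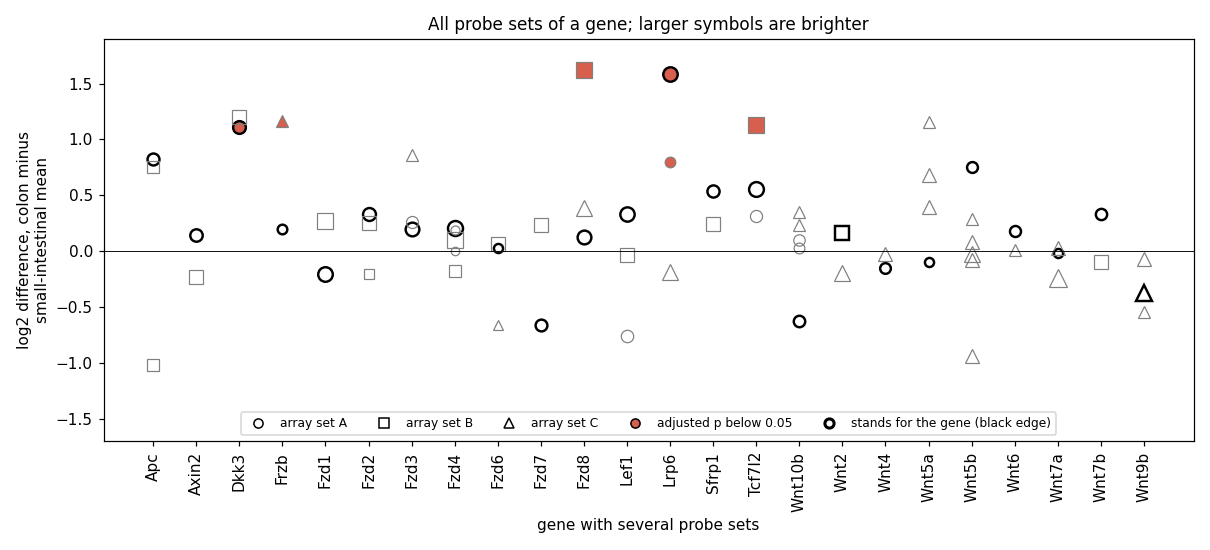
Log2 difference between the colon and the small-intestinal mean (vertical axis) for every probe set of the 24 members with several probe sets (horizontal axis). Symbol shape gives the array set, filled symbols have an adjusted p below 0.05, a black edge marks the probe set that stands for the gene, and larger symbols are brighter; the Lrp6 probe sets lie between log2 -0.19 and 1.59.

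Other genes of the pathway were counted from a list of 68 genes, of which 63 were measured. In the colon against the small intestine 12 were higher and 3 lower, where 6.92% of all genes were called higher and 4.96% lower, and their median difference was log2 0.09, against 0.05 over all genes. Without colon 1 the count was 5 higher and 2 lower, without colon 2 it was 7 and 2, and without colon 3 it was 5 and 3. With each array centred on its median it was 6 and 4. In the jejunum 2 were higher than in the duodenum and 0 lower, against 0.639% and 0.858% of all genes. Neither of the 2, Frat2 and Mmp7, was called with the 18S class as a covariate (limma, adjusted p 0.143 and 0.128). With 1 pool left out at a time, Frat2 was kept in 9 of 12 cases and Mmp7 in 2. In the ileum 5 were higher than in the jejunum and 2 lower, against 2.46% and 2.02%, and in the colon 2 were higher than in the ileum and 2 lower, against 2.49% and 2.74%. The ileal count fell to 2 higher and 2 lower with median centring or without ileum 3, and to 2 and 1 without jejunum 3. In the high 18S class alone, 1 pool against 1, none of these 7 was called, with differences from log2 -0.92 for Frat2 to 1.17 for Ccnd1 and adjusted p of 0.176 to 0.614. Wls, the carrier that brings Wnt proteins to the cell surface, had 116.5 ± 16.02 in the duodenum, 47.7 ± 30.8 in the jejunum, 153.1 ± 25.9 in the ileum and 349.8 ± 69.8 in the colon (SD, n = 3). It was higher in the colon by log2 1.74 (adjusted p 0.000894) and higher in the ileum than in the jejunum by 1.55 (adjusted p 0.0270). The brightest Wls probe set of all array sets gave a colon difference of log2 -0.25 (adjusted p 0.571) and 0.11 for ileum against jejunum (0.911). Lgr4, a receptor for the Wnt-enhancing R-spondins, had 381.3 ± 63.7, 314.1 ± 149, 889.9 ± 66.6 and 1165 ± 114 from duodenum to colon. It rose in the ileum over the jejunum by log2 1.55 (adjusted p 0.00441) and in the colon over the small intestine by 1.30 (0.000903). Its probe set with the middle difference, picked anew for each comparison, gave 0.68 (adjusted p 0.690) and 0.30 (0.813) for the same comparisons. Lgr5, the stem cell receptor of the same family, was dim at 21.9 ± 8.78 to 41.8 ± 23.8 and was not called (adjusted p 0.836), and neither was any other of the 7 measured agonists and agonist receptors.

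In the cytoplasm 2 of 11 genes were higher in the colon and 2 lower, against 6.92% and 4.96% of all genes. Gsk3a, a kinase of the destruction complex, had 2892 ± 194, 5610 ± 1707, 2578 ± 329 and 1906 ± 100.3 from duodenum to colon. It was lower in the colon than in the small intestine by log2 -0.84 (adjusted p 0.00412) and lower in the ileum than in the jejunum by -1.07 (0.00992). Dvl1, a Dishevelled protein that passes the receptor's signal on, was lower in the colon (log2 -0.53, adjusted p 0.0260). Its relative Dvl2 (1.05, 0.0353) and the kinase Csnk1a1 (0.62, 0.0287) were higher. When 1 pool was left out at a time, the call of Dvl2 was kept in 4 of 12 cases, that of Csnk1a1 in 8 and that of Dvl1 in 10. The Dvl2 probe set with the middle difference gave log2 0.23 (adjusted p 0.824). Frat2, an inhibitor of Gsk3, was higher in the jejunum than in the duodenum (log2 1.44, adjusted p 0.0138) and lower in the ileum than in the jejunum (-1.35, 0.0122), with 790.5 ± 377 in the jejunum and 261.5 ± 36.6 to 325.2 ± 46.7 elsewhere. Its jejunal call against the duodenum was absent with the 18S class as a covariate (log2 1.03, adjusted p 0.143). The probe set with the middle difference did not give that call either (log2 0.67, adjusted p 0.446).

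In the nucleus Tcf7l1, a mostly repressing factor of the Tcf family, had 73.1 ± 44.7, 86.9 ± 46.3, 29.7 ± 10.1 and 227.2 ± 41.0 from duodenum to colon. It was higher in the colon than in the ileum by log2 2.42 (adjusted p 0.00546) and than in the small intestine by 1.79 (0.00576); without colon 1 the latter missed the threshold (1.66, 0.0506). The corepressor Ctbp2 was higher in the colon (0.77, 0.0368), and the planar polarity genes Celsr1 (1.35, 0.0101) and Prickle1 (1.61, 0.0414) were too, 2 of 7 in their group, against 6.92% of all genes. Leaving out 1 pool at a time kept Celsr1 in 10 of 12 cases, Ctbp2 in 6 and Prickle1 in 2. The brightest Prickle1 probe set gave log2 0.48 (adjusted p 0.274).

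Of 12 measured target genes, 4 were higher in the colon and 1 was lower, against 6.92% and 4.96% of all genes. Ccnd1 (cyclin D1) had 279.6 ± 29.5, 192.0 ± 55.9, 560.6 ± 38.3 and 620.6 ± 69.6 from duodenum to colon, with log2 1.50 for ileum over jejunum (adjusted p 0.000521) and 0.96 for colon over small intestine (0.000849). Cdx1, an intestinal homeobox factor, rose to 996.9 ± 108 in the colon from 320.1 ± 30.8 in the duodenum (colon against small intestine log2 1.18, adjusted p 2.18e-05). Sox9, a crypt factor, was higher by 0.92 (0.0223) and Ets2 by 0.50 (0.0450). The Sox9 call ended without colon 1 (adjusted p 0.132) or colon 3 (0.147), and its brightest probe set gave log2 0.06 (0.919). The call of Ets2 was kept in 4 of 12 cases with 1 pool left out. Mmp7, a protease of Paneth cells, was lower in the colon by log2 -3.95 (2.59e-09), at 22.1 ± 12.7 in the colon and 299.6 ± 53.3 to 863.9 ± 121 in the small intestine. Axin2, Myc, Ascl2, Cd44 and Ephb3, which are also known as targets, were not called in any comparison.

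**Figure D4:**
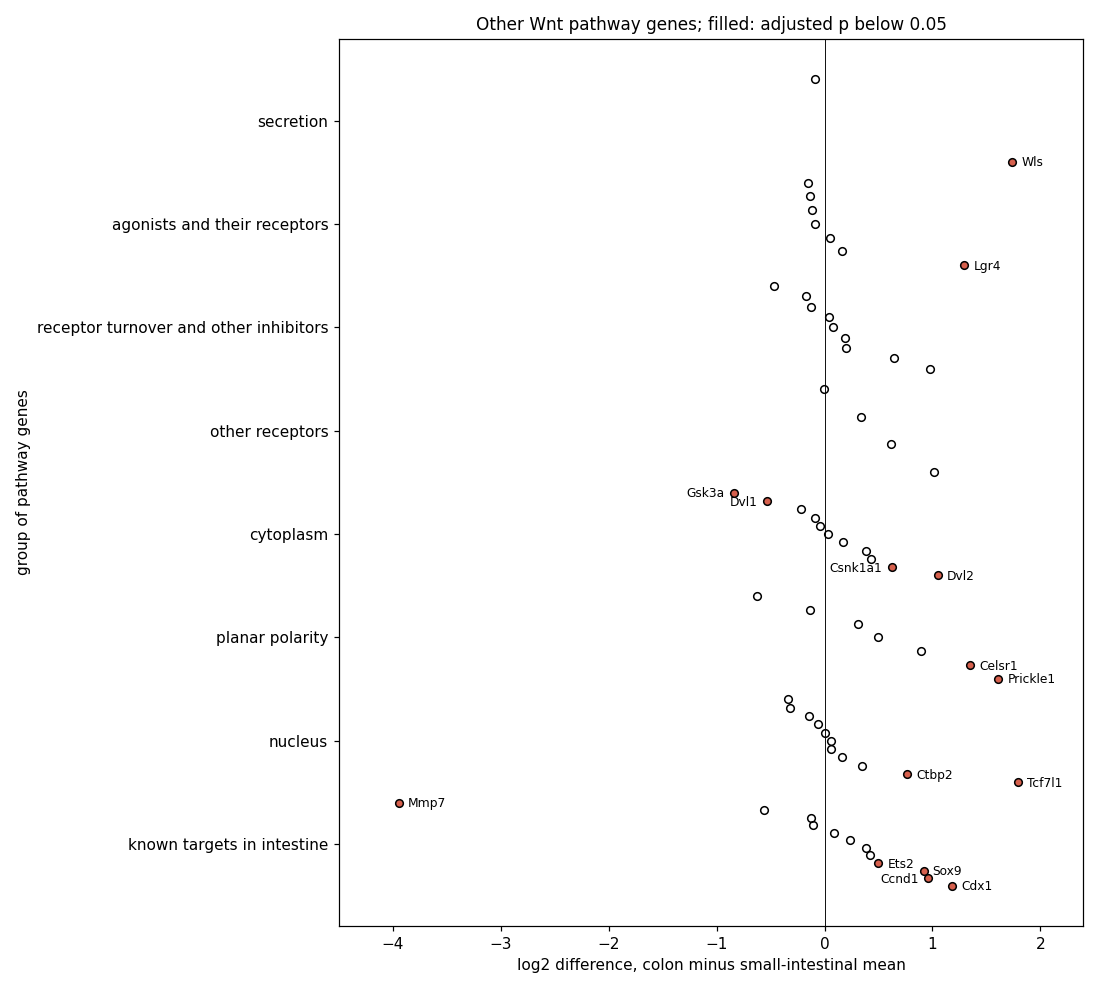
Log2 difference between the colon and the small-intestinal mean (horizontal axis) for 63 other pathway genes (points), by group (vertical axis). Filled points have an adjusted p below 0.05 and are named; 12 lie to the right of 0 and 3 to the left, with Mmp7 at log2 -3.95.

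Some cell type markers also differed between colon and small intestine, where 6.92% of all genes were called higher and 4.96% lower. All 8 smooth muscle markers were called higher in the colon, and their summed intensity was 25203.9 to 29194.2 in the colon pools, 8935.5 to 10818.8 in the ileum, 5134.5 to 7953.4 in the jejunum and 4757.1 to 5634.5 in the duodenum. Of 8 fibroblast and matrix markers, 4 were higher in the colon and 1 lower, with sums of 4031.8 to 4429.1 in the colon and 2746.6 to 6455.3 in the small intestine. Of 5 Paneth cell markers 3 were lower in the colon, of 7 T cell markers 2 were lower, and of 8 epithelial markers 1 was lower. Of 6 neuron and glia markers 1 was higher. None of 6 endothelial, 7 proliferation and 5 B cell markers was called between colon and small intestine. All 5 exocrine pancreas markers were lower in the colon, and their sum was 76496.8 to 77650.1 in the duodenum and at most 1554.8 in any other pool. The 5 gastric and Brunner's gland markers, 3 of them lower in the colon, summed to 49447.2 to 67161.6 in the duodenum and at most 610.9 elsewhere, so the duodenum pools that enter the small-intestinal mean stood apart in both lists. Between ileum and jejunum, 2 of 8 smooth muscle markers were higher in the ileum, and 1 of 5 B cell markers was, with sums of 1133.5 to 1255.5 in the ileum and 460.7 to 641.9 in the jejunum. In that comparison 2.46% of all genes were called higher and 2.02% lower. The fibroblast and matrix markers, 1 higher and 1 lower in the ileum, summed to 2746.6 to 3569.2 there and 5195.4 to 6455.3 in the jejunum. The 7 proliferation markers summed to 1164.3 to 1521.2 in the ileum and 884.5 to 1077.5 in the jejunum, and 0 of them were called (limma). The part of these cell types in the differences of Lrp6, Dkk3, Wif1, Fzd10, Fzd5, Fzd1 and the other pathway genes was not tested.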

How the data were processed

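The deposited tables hold intensity values, judged linear from their range; the labels name no unit. In every array the mean without the outer 2% of values at each end was 200 to 200.2, which shows that the authors scaled to 1 target. Software and background correction were not given in the sources used here, and no detection calls were used. An offset of 16 was added before log2, which shrinks differences of dim genes. Array sets A, B and C were modelled separately in limma 3.58.1 (R 4.3.3), each from its 12 arrays with a mean for every segment and an intensity trend in the moderated variance. Benjamini-Hochberg adjustment covered all 36701 non-control probe sets at once; tests were 2-sided, with calls at an adjusted p below 0.05. Precision is limited by the number of arrays, 3 per segment and set. The procedure was tested on simulated data. Gene symbols came from the annotation table supplied with the arrays, and probe sets with several symbols stayed out.

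The members, lists and tests were chosen with earlier results of these data known. Values in every pool are given for members called in any comparison and for Ctnnb1, Apc, Axin2, Lrp5, Lrp6 and Tcf7l2; other members are named where their highest segment mean is above the array set's median, and of the lists the called genes are named, at most 6 a list and comparison. Genes named outside this rule serve as context or were chosen after their values were seen. Other settings tried were the offset, scaling, filter, variance trend, samples in the fit, pool block, 18S class, probe set, the name of duodenum 3 on set C and each pool left out. The brightest probe set over all array sets was added after the data were seen. The middle probe set was the one with the middle log2 difference among a gene's probe sets, or the lower of the middle pair.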

Additional observations from a re-analysis of the deposited data

How the results depend on the processing

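Counts of members called were small, and several settings moved them. For any difference among segments (6 members) the high 18S class alone gave 2, and leaving out 1 pool at a time gave 1 to 6, with Lrp6 alone without jejunum 3. For ileum against jejunum (2), median centring, no intensity trend, the middle probe set and the brightest probe set each gave 1, the compared segments alone and the high 18S class (1 pool of each) gave 0, and leaving out pools gave 0 to 2. For colon against ileum (2), the filter on dim probe sets, the compared segments alone, the high 18S class, duodenum 3 of set C counted as jejunum, and the middle probe set each gave 1, and leaving out pools gave 0 to 4. For colon against small intestine (4), the 18S class as a covariate gave 1, and leaving out pools gave 1 to 4. The genes called there also changed with the setting. The brightest probe set called Frzb, Fzd10, Tcf7l2 and Wif1, without Lrp6 and Dkk3. The filter on dim probe sets called Lrp6, Tcf7l2 and Wnt1, and quantile normalization called Ctnnb1 in place of Fzd10. Jejunum against duodenum stayed at 0 in all 26 settings. The direction of Lrp6 reversed with its brightest probe set, to log2 -0.157 against the ileum and -0.187 against the small intestine, as did Wls against the small intestine (-0.246) with that setting and Ctbp2 (-0.112) with the middle probe set; other probe sets were read there, and the cause was not tested further. Median centring moved the median over all genes from 0.08 to -0.13 for ileum against jejunum, from -0.05 to 0.09 for jejunum against duodenum and from 0.05 to -0.08 for colon against small intestine. It moved the other pathway genes from 12 higher and 3 lower to 6 and 4 in the colon. With the pool number as a replicate block, 5, 0, 2, 2 and 3 members were called in the 5 comparisons (any difference, then jejunum, ileum, colon against the segment before, colon against small intestine). For any difference Fzd1 and Fzd10 were then not called, and Wif1 was. After each segment's mean was subtracted, same-numbered pools of different segments correlated at -0.36 to 0.36, a range that cannot tell whether they share mice. Dim probe sets limit what could be called: with array set A taken first, 11 of 16 ligands stood on probe sets at or below their set's median, and 5 of these 11 had a brighter one above it on another array set.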
